A study of Homo sapiens with 12 samples.

Results

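Type I interferon response genes are the genes that cells switch on after interferon alpha or beta binds its receptor. A list of 41 such genes was read in this series. A gene was kept if the array had a probe set annotated to its symbol alone (RIGI was accepted for DDX58), and where it had several, the one whose mean over all 12 arrays was highest was used. This gave 40 genes of the 19775 measured in all, and 1 listed gene had no probe set of its own symbol and was not analysed here. The rule used no measured difference between groups, but the list itself was chosen with earlier results of these data known.

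The cells were PC9, a human lung adenocarcinoma line that grows on a mutant, active EGFR. Stable PC9 lines were made with lentivirus that carried either a GFP vector, the control, or the precursor of miR-371 (labelled miR371 precursor and called pre-miR-371 here), and 1 line of each kind was profiled. The labels name the control only as GFP vector, while the study's methods list a scramble hairpin in a GFP vector for such constructs, so whether the control carried a hairpin is not settled here. Each line was treated with DMSO, the solvent, or with erlotinib, which blocks the EGFR kinase, at 2 μM for 24 h. The 4 groups were therefore GFP vector cells in DMSO, GFP vector cells in erlotinib, pre-miR-371 cells in DMSO and pre-miR-371 cells in erlotinib, with 3 Affymetrix Hgu133plus2 arrays each. All groups carried an integrated lentiviral construct, and no uninfected line and no interferon-treated cells were among the arrays. The labels do not say whether the 3 arrays of a group came from separate cultures, so p-values here speak only of the spread among these arrays, which may be technical. The control line was a single line too, so an effect of the precursor and a difference between the particular lines cannot be told apart.

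In the textbook pathway, interferon alpha or beta binds the receptor IFNAR1 and IFNAR2, the kinases JAK1 and TYK2 phosphorylate STAT proteins, and these join IRF9 in a complex that binds the interferon-stimulated response element in promoters. Interferon gamma acts through another receptor and a STAT dimer that binds a different site, the GAS element, and some genes respond to both. The induced proteins sense viral RNA, degrade it, block translation or trap virus particles, and lung epithelial cells are among the first to use them during infection.

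The response element was searched in RefSeq promoter windows of 250 bases before to 50 bases after the start site (GRCh38.p14). The list is of genes known to answer interferon, so a high share follows from the list and is no result of these arrays. The motif was GAAA, any 2 bases (NN) and GAAA, read on both strands, so that TTTC, NN and TTTC counted as well. A window was at hand for 32 of the 40 genes, and 22 of them (68.75%, Wilson 95% interval 51.4% to 82.0%) held the motif, against 613 of 15384 genes with a window (3.98%) and 3.57% of 35116 windows. GBP2, IFIT2, IRF7, MX2, OAS2, OASL, TRIM22 and USP18 had no window. The 22 genes held 40 sites, 22 read forward in the gene's direction and 18 in reverse. The GAS motif, TTCNNNGAA, stood in the windows of 10 of the 32 genes (31.25%), against 8.97% of all genes. These are matches of letters, not binding sites.

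The next sites are shown because they lie before genes that reacted differently to erlotinib. Capitals mark the match of the motif named, and each stretch is printed 5′ to 3′ on the strand that reads GAAA. The windows of IFIT1 and ISG15 each held another site. That of ISG15, GAAAGGGAAA, overlaps the match in capitals, and its first letters stand in lower case. The GBP1 site lies at chr1:89065316-89065345 on the plus strand, the PARP9 site at chr3:122564322-122564351 on the plus strand, and the SAMD9 site at chr7:93118096-93118125 on the minus strand. The IFIT1 site lies at chr10:89392510-89392539 on the minus strand, the ISG15 site at chr1:1013380-1013409 on the plus strand, the ISG20 site at chr15:88638937-88638966 on the plus strand and the RSAD2 site at chr2:6877622-6877651 on the minus strand. GBP1, PARP9, SAMD9, IFIT1 and ISG15 rose in erlotinib, ISG20 fell, and RSAD2 did not pass the test.
GBP1: agagtaatatGAAACTGAAAgtacttcgtt
PARP9: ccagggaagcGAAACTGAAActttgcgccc
SAMD9: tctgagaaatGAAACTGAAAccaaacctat
IFIT1: gaaacctaggGAAACCGAAAggggaaagtg
ISG15: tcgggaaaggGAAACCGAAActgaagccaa
ISG20: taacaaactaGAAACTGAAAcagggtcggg
RSAD2: ttccacatgtGAAACTGAAAgttgaaacag
GBP1, PARP9, SAMD9, ISG20 and RSAD2 share the same 10 letters in capitals. The same letters thus stood before genes that rose, before a gene that fell and before a gene that stayed near background.

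The construct that separates the lines is the miR-371 precursor, which yields a mature miRNA from each arm. Both are shown as RefSeq gives them, with the seed, the bases that pair with a target, in capitals. They lie at chr19:53787680-53787699 and chr19:53787716-53787738 on the plus strand.
hsa-miR-371a-5p: aCUCAAACugugggggcacu
hsa-miR-371a-3p: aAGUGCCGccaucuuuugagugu

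The values are on the log2 scale, so a difference of 1 is a doubling. Array medians over all probe sets lay between 4.31 and 4.41, the mean correlation of an array with the others of its group was 0.996 to 0.9973, and no array was a copy of another. A gene with a mean under 6 in every group was taken as near background, where a change reads smaller than it is. By this limit 19 of the 40 genes were near background in every group, 7 were at 6 or more in every group, and 12 stood under 6 in both DMSO groups and at 6 or more in an erlotinib group. A gene can pass the limit by rising, so these counts are a description. Of the lung epithelial markers fixed for the check, 8 of 11 had a mean of 6 or more in every group, namely EPCAM, CDH1, the keratins KRT7, KRT8, KRT18 and KRT19, EGFR and SFTPC. NKX2-1, NAPSA and SFTPB, which mark alveolar cells as SFTPC does, were under 6.

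**Figure D1:**
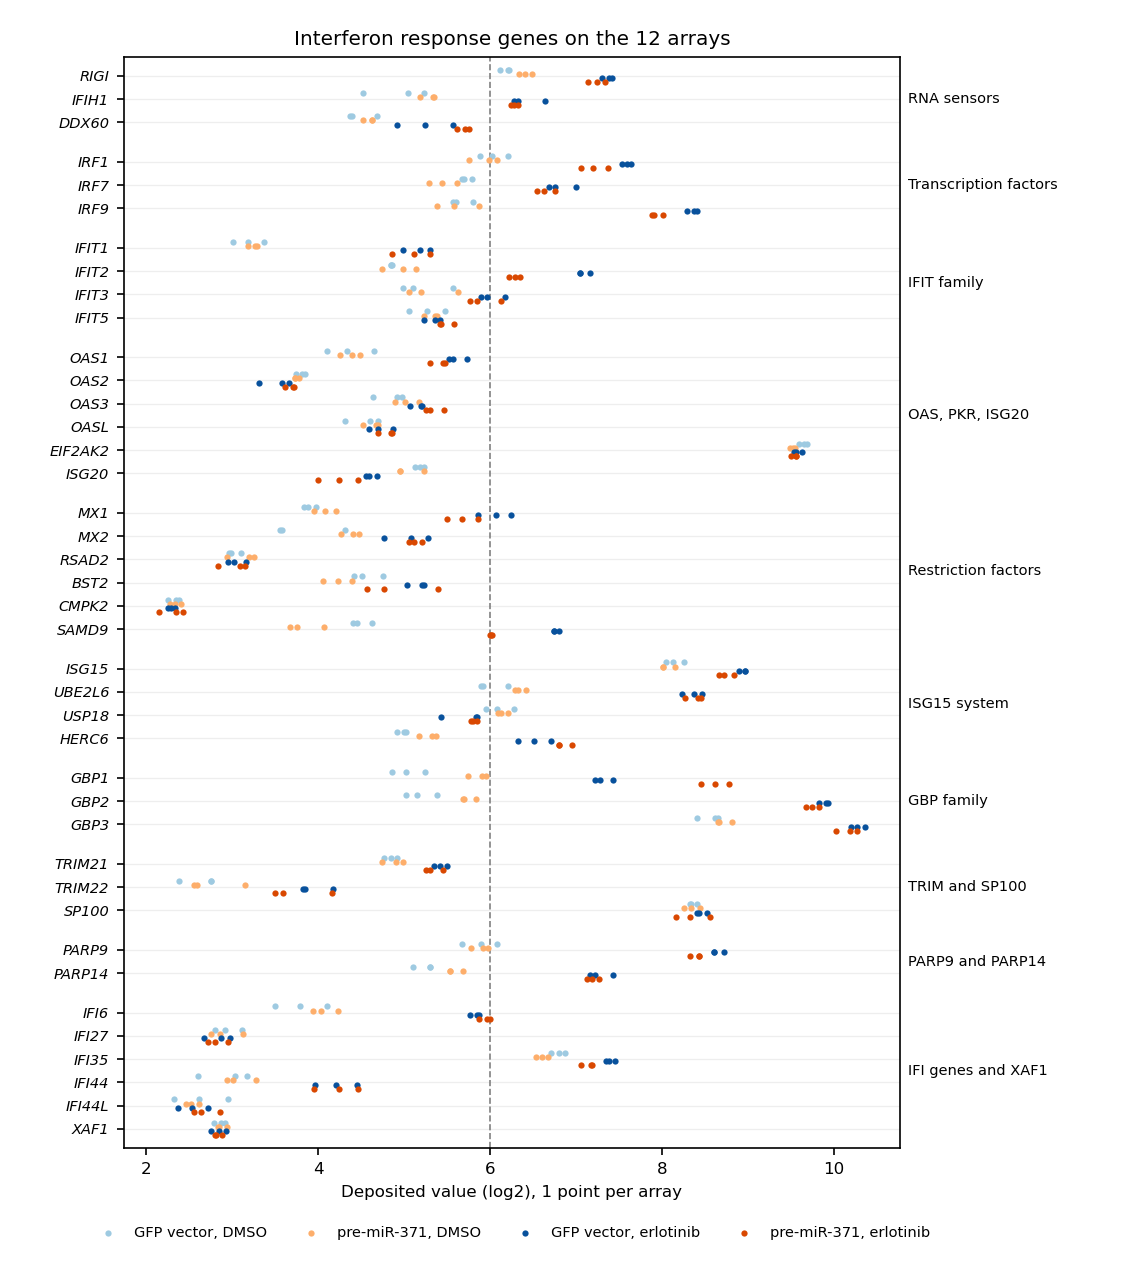
Deposited log2 value of each of the 40 interferon response genes on each of the 12 arrays, 1 point per array, coloured by group and ordered by role. The dashed line marks 6, the limit for near background. In DMSO 31 genes of GFP vector cells and 32 of pre-miR-371 cells had a mean under 6, and in erlotinib 20 and 22. Of all genes 52.3% and 52.5% were under 6 in DMSO, and 50.6% and 50.7% in erlotinib.

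Most of these genes were higher in erlotinib than in DMSO in both lines. Of the 40, GFP vector cells had 28 higher and 3 lower, where 26.5% of all genes were higher and 23.4% lower (limma, adjusted p under 0.05 over all genes). In pre-miR-371 cells 28 were higher and 2 lower, against 24.8% and 22.2% of all genes. The same 28 genes (70%) were higher in both lines, a state that 22.4% of all genes shared. With a fold of over 1.5 as well, 26 were higher and 0 lower in GFP vector cells (all genes 14.1% and 11.7%), and 25 were higher and 1 lower in pre-miR-371 cells (12.6% and 9.33%). The median difference of the 40 genes on the log2 scale was 1.14 for GFP vector and 0.91 for pre-miR-371, where the medians of all genes were 0.00 and -0.03. In each line the 3 erlotinib arrays all lay above the 3 DMSO arrays for 29 genes and all below for 3. Among all genes the arrays lay above for 28.5% and below for 25.7% in GFP vector cells, and above for 28.1% and below for 27.8% in pre-miR-371 cells.

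**Figure D2:**
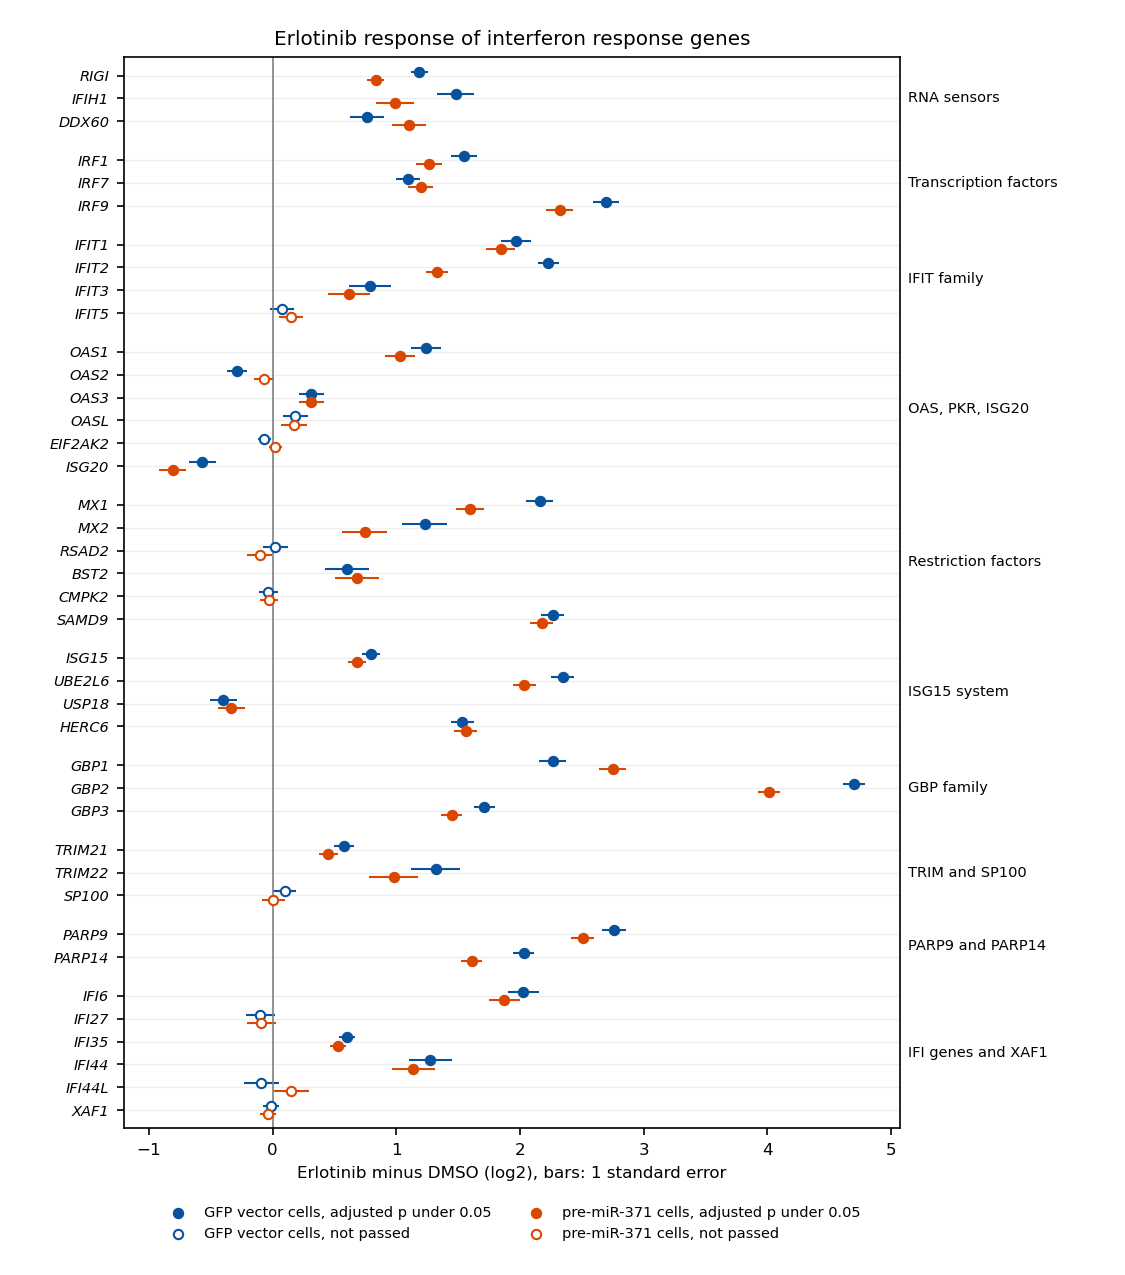
Difference between erlotinib and DMSO (log2) of the 40 genes in GFP vector cells (blue) and pre-miR-371 cells (orange), with bars of 1 standard error. Filled points passed an adjusted p of 0.05 over all genes and open points did not. GBP2 lies farthest to the right in both lines, at 4.70 and 4.01, and USP18 and ISG20 lie to the left of 0 in both.

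The arrays held RNA of cultured PC9 lines, and the labels name no other cell type. Markers of other cell types were read beside this result. All 10 leukocyte markers measured had means under 6 in every group, with PTPRC, the pan-leukocyte antigen CD45, between 2.78 and 2.86. CLEC4C and LILRA4, which mark the plasmacytoid dendritic cells that make most interferon in blood, had means of 2.76 to 3.00 and 4.46 to 4.57. ITGAM and LYZ of this list rose in erlotinib, by 1.14 and 1.37 in GFP vector cells and 1.28 and 1.26 in pre-miR-371 cells, and the log2 of the summed leukocyte level went from between 7.43 and 7.74 in DMSO to between 7.91 and 8.04 in erlotinib. The other 8 leukocyte markers measured did not pass in either line. Of 7 fibroblast markers COL1A1 alone reached 6, and no fibroblast marker passed the test of erlotinib against DMSO in either line. Of 3 endothelial markers PECAM1 reached 6. It rose by 1.27 and 1.03 and VWF by 0.48 and 0.52, and the log2 of the summed endothelial level went from between 8.18 and 8.26 in DMSO to between 9.08 and 9.36 in erlotinib. The part of these markers in the result was not tested. In bulk RNA, fewer cells of a kind and less RNA per cell cannot be told apart.

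The transcription factors of the pathway rose. IRF9, the DNA-binding subunit of the interferon complex, read 5.80, 5.61 and 5.57 in GFP vector cells in DMSO and 8.29, 8.37 and 8.41 in erlotinib. In pre-miR-371 cells it read 5.87, 5.58 and 5.39 in DMSO and 7.90, 8.02 and 7.88 in erlotinib. The erlotinib arrays stood more than 2 log2 units above every DMSO array in each line. IRF9 rose by 2.70 (standard error 0.11, adjusted p = 8.52e-10) and 2.32 (adjusted p = 4.05e-09), and the first is a 6.49-fold rise. IRF1, a factor that interferon gamma and NF-kB also induce, rose by 1.55 and 1.26, and IRF7, which amplifies interferon production, by 1.09 and 1.20. Of 5 other IRFs, read from a separate list, 2 rose in each line and 1 fell in pre-miR-371 cells. IRF2, a repressor that competes with IRF1, rose by 0.67 and 0.63, and IRF5 by 0.36 and 0.19. IRF3, the constitutive factor that starts interferon transcription, differed by -0.17 and -0.15 and did not pass. IRF4, near background, fell by 0.30 in pre-miR-371 cells (adjusted p = 0.0455) and did not pass in GFP vector cells (0.12), and IRF8 did not pass in either.

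All 3 sensors were higher. RIGI and IFIH1 (MDA5), the cytosolic helicases that recognise viral RNA, rose by 1.19 and 1.48 in GFP vector cells and by 0.83 and 0.99 in pre-miR-371 cells. The RIGI probe set chosen can bind other transcripts, and its 2 other probe sets rose too, by 1.43 and 1.53 in GFP vector cells and 1.20 and 1.13 in pre-miR-371 cells. DDX60, a related helicase, was near background in every group and rose by 0.76 and 1.10.

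In the IFIT family, whose proteins bind foreign RNA ends, 3 of 4 genes rose in each line. IFIT2 read 4.86, 4.85 and 4.85 in GFP vector cells in DMSO and 7.17, 7.05 and 7.04 in erlotinib. In pre-miR-371 cells it read 4.99, 4.74 and 5.13 in DMSO and 6.34, 6.29 and 6.21 in erlotinib. The groups did not overlap between treatments, and the erlotinib arrays of the 2 lines did not overlap either. The rise was 2.23 (standard error 0.09, adjusted p = 7.02e-10) and 1.33 (adjusted p = 7.88e-08). The other IFIT2 probe set, with a lower mean, gave 0.48 and 0.31 and did not pass. IFIT1, which binds capped foreign RNA, rose from 3.00 to 3.37 in DMSO to 4.98 to 5.30 in erlotinib in GFP vector cells, so it stayed under 6. Its rise was 1.97 and 1.84. IFIT3 rose by 0.79 and 0.62 on the probe set chosen and by 2.79 and 2.15 on the other. IFIT5 differed by 0.07 and 0.15 and did not pass.

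The OAS, PKR and ISG20 group moved least as a whole. OAS1, which makes the oligoadenylates that activate RNase L, rose by 1.24 and 1.03 to means still under 6. OAS3 rose by 0.31 in each line (adjusted p = 0.0208 and 0.0224), a call that was easily lost. In GFP vector cells it was lost without DMSO array 1 (0.21, adjusted p = 0.0859), without erlotinib array 2 or 3 (adjusted p = 0.0612 and 0.0642) and with its probe sets averaged (0.06, adjusted p = 0.665). In pre-miR-371 cells it was lost without DMSO array 1 or 3 (adjusted p = 0.0956 and 0.0593), without erlotinib array 1 (adjusted p = 0.092) and with its probe sets averaged (0.16, adjusted p = 0.169). OAS2 fell by 0.29 in GFP vector cells (adjusted p = 0.00964) and did not pass in pre-miR-371 cells (-0.07). OAS2 was near background in every group, and its call was lost with its probe sets averaged (-0.16, adjusted p = 0.0515). OASL, a relative without synthase activity, did not pass on the probe set chosen. Its second set fell by 0.36 in GFP vector cells (adjusted p = 0.0306) and did not pass in pre-miR-371 cells (-0.18). EIF2AK2 encodes PKR, the kinase that halts translation on double-stranded RNA, and was the highest of the group with 9.49 to 9.68 on all 12 arrays. It differed by -0.07 (95% interval -0.18 to 0.05) and 0.02 (-0.09 to 0.14). Its second probe set fell by 0.40 and 0.25 and passed.

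ISG20, an RNA exonuclease, fell in both lines, as did USP18 alone among the other genes of the list. It read 5.12, 5.18 and 5.23 in GFP vector cells in DMSO and 4.56, 4.68 and 4.59 in erlotinib. The values for pre-miR-371 were 5.23, 4.95 and 4.96 in DMSO and 4.47, 4.0 and 4.25 in erlotinib. All erlotinib arrays lay below all DMSO arrays, and all values lay under 6. The fall was 0.57 (adjusted p = 0.000787) and 0.81 (adjusted p = 4.91e-05), and its other probe set fell by 0.60 and 0.52.

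Of the 6 restriction factors 4 rose in each line. SAMD9, which blocks poxvirus growth, read 4.62, 4.45 and 4.4 in GFP vector cells in DMSO and 6.80, 6.74 and 6.74 in erlotinib, a rise of 2.27. In pre-miR-371 cells it read 3.68, 4.07 and 3.76 in DMSO and 6.02, 6.01 and 6.00 in erlotinib, a rise of 2.18. The 4 groups lay apart, with pre-miR-371 below GFP vector under each treatment. MX1, a dynamin-like GTPase that blocks influenza virus, rose from between 3.83 and 3.97 to between 5.86 and 6.24 in GFP vector cells (2.16) and from between 3.95 and 4.21 to between 5.50 and 5.86 in pre-miR-371 cells (1.6). MX2 rose by 1.23 and 0.74. BST2, the tetherin that holds virus particles at the cell surface, rose by 0.60 and 0.68, with adjusted p = 0.0129 and 0.00652. Without GFP vector DMSO array 2, BST2 in GFP vector cells gave 0.53 at an adjusted p of 0.0503. RSAD2 (viperin) and CMPK2, its neighbour in the genome, are strong targets of interferon in most cells. RSAD2 read 2.84 to 3.26 and CMPK2 2.15 to 2.42 on all 12 arrays, and neither passed in any comparison.

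ISG15, the ubiquitin-like modifier, and the genes grouped with it did not move as a block. ISG15 itself was well above background, at 8.01 to 8.26 in DMSO and 8.66 to 8.96 in erlotinib, and rose by 0.80 and 0.68. UBE2L6, the enzyme that transfers ISG15 to its targets, read 5.92, 5.90 and 6.21 in GFP vector cells in DMSO and 8.47, 8.37 and 8.23 in erlotinib, a rise of 2.35 (adjusted p = 8.54e-10). In pre-miR-371 cells it rose by 2.04. HERC6, a ligase of the HERC family, rose by 1.53 and 1.56. USP18 removes ISG15 from proteins and dampens signalling at the interferon receptor. It read 5.96, 6.08 and 6.28 in DMSO and 5.84, 5.85 and 5.43 in erlotinib in GFP vector cells, and 6.12, 6.10 and 6.21 and then 5.84, 5.78 and 5.80 in pre-miR-371 cells. It fell by 0.40 (adjusted p = 0.00886) and 0.33 (adjusted p = 0.0248), with no overlap between treatments. The call in pre-miR-371 cells was lost without DMSO array 3 or without erlotinib array 2 or 3, at adjusted p of 0.0609 to 0.0814.

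The GBP family, large GTPases that attack the compartments of intracellular pathogens and answer strongly to interferon gamma, held the largest rise of the 40 genes. GBP2 read 5.38, 5.15 and 5.02 in GFP vector cells in DMSO and 9.90, 9.83 and 9.93 in erlotinib. The pre-miR-371 arrays read 5.70, 5.69 and 5.84 in DMSO and 9.75, 9.83 and 9.68 in erlotinib. It was thus near background without drug and among the high genes of the list with it. The rise was 4.70 (standard error 0.09, adjusted p = 3.13e-12) in GFP vector cells and 4.01 (adjusted p = 1.29e-11) in pre-miR-371 cells, or 26.0-fold and 16.1-fold, and the second GBP2 probe set gave 4.87 and 4.33. GBP1 rose by 2.27 and 2.75. GBP3 was already high, at 8.41 to 8.81 in DMSO, and rose by 1.71 and 1.45. GBP4 and GBP5, read with the other interferon-stimulated genes, had means of 2.52 to 3.17 in every group and did not pass.

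PARP9 and PARP14, ADP-ribosyltransferases of the macrodomain class, both rose. PARP9 read between 5.67 and 6.09 on the 6 DMSO arrays and between 8.32 and 8.72 on the 6 erlotinib arrays, with rises of 2.76 and 2.51. PARP14 rose by 2.03 and 1.61, and DTX3L, the ubiquitin ligase that pairs with PARP9, by 1.73 and 1.57. TRIM21, a cytosolic antibody receptor, rose by 0.58 and 0.45. TRIM22, a ubiquitin ligase, rose by 1.32 and 0.98 but read 4.17 or less on every array. SP100 of the nuclear bodies was at 8.16 to 8.56 throughout and differed by 0.10 and 0.01, short of the test. Of its 6 probe sets only 1 passed, a set near background that fell by 0.39 and 0.42 (adjusted p = 0.0188 and 0.0144).

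Among the genes named for their induction by interferon, IFI6, IFI35 and IFI44 rose and IFI27, IFI44L and XAF1 did not pass. IFI6, an inhibitor of apoptosis, rose by 2.03 and 1.87 and reached 5.76 to 6.00. IFI35 read 6.53 to 6.87 in DMSO and 7.06 to 7.45 in erlotinib and rose by 0.60 and 0.53. Its partner NMI, from the other list, rose by 1.02 and 0.89. IFI44 rose by 1.27 and 1.14, with values of 2.60 to 4.46 on the 12 arrays. IFI27 read 2.67 to 3.13, IFI44L 2.32 to 2.95 and XAF1 2.76 to 2.94 on the 12 arrays. The windows of IFI6, IFI27, IFI44 and IFI44L held the response element, and those of IFI35 and XAF1 did not.

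The motif was also set beside the response to erlotinib. Of the 22 genes with the response element 16 rose in each line, and of the 10 with a window but no such letters 7 rose. Among genes outside the list, 28.9% of the 591 with the motif and 27.7% of the 14761 without it were higher in GFP vector cells, and 28.3% and 26.1% in pre-miR-371 cells. Of the 10 genes whose window held the GAS motif 9 rose in each line, and of the 22 without it 14 rose. Outside the list 25.6% with and 27.9% without the GAS motif were higher in GFP vector cells. These shares are descriptions with no test.

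The 28 genes that rose in both lines did so by less in pre-miR-371 cells for 23 of them, where the response was smaller for 3016 of the 4437 genes of the array that rose in both. The difference of the responses was tested gene by gene. It passed for IFIT2 and GBP2 and for no gene in the other direction, which is 2 lower of 40 against 0.561% of all genes and 0 higher against 1.44%. At an unadjusted p under 0.05 there were 8 lower and 1 higher, where 2974 of all 19775 genes passed this limit in either direction. For IFIT2 the rise was smaller in pre-miR-371 cells by 0.90 (95% interval -1.17 to -0.63, adjusted p = 0.0072). For GBP2 the difference was -0.69 (-0.96 to -0.42, adjusted p = 0.0165). For MX1 it was -0.56 (adjusted p = 0.105), for PARP14 -0.42 (adjusted p = 0.11) and for GBP1 0.49 (adjusted p = 0.154), and none of these passed. With a fold of over 1.5 as well the counts were 0 higher and 2 lower (all genes 0.516% and 0.283%). The averaged probe sets of IFIT2 gave -0.53, which did not pass (adjusted p = 0.109), and the second GBP2 probe set gave -0.54 (adjusted p = 0.21). The second IFIT3 probe set gave -0.64 (adjusted p = 0.0204) where the chosen one gave -0.17. The median over the 40 genes was -0.12, against -0.01 over all genes.

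**Figure D3:**
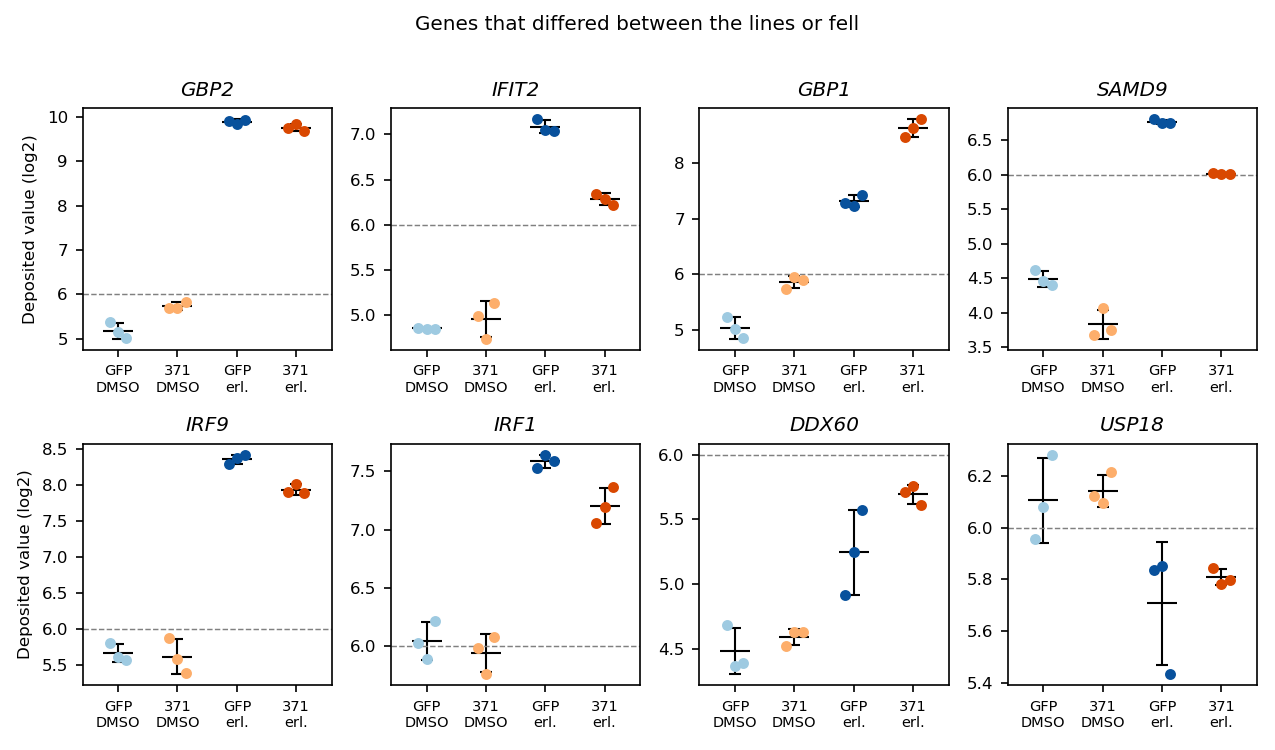
Deposited log2 values of GBP2, IFIT2, GBP1, SAMD9, IRF9, IRF1, DDX60 and USP18 on the 3 arrays of each group (points), with the mean and 1 standard deviation (black). Vertical scales differ between panels and do not start at 0, and the dashed line marks 6. IFIT2 and SAMD9 lie lower in pre-miR-371 than in GFP vector cells in erlotinib, GBP1 lies higher, and USP18 falls in erlotinib in both lines.

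Without drug the lines differed for 4 of the 40 genes. GBP1, GBP2 and PARP14 were higher in pre-miR-371 cells (1.62% of all genes were) and SAMD9 was lower (3.64%). With a fold of over 1.5 as well, 1 was higher and 1 lower (0.217% and 0.233% of all genes). GBP1 read 5.24, 5.03 and 4.86 in GFP vector cells and 5.74, 5.95 and 5.90 in pre-miR-371 cells, a difference of 0.82 (standard error 0.11, adjusted p = 0.00251). GBP2 was higher by 0.55 (adjusted p = 0.00619), below 6 in both lines. SAMD9 was lower by 0.66 (adjusted p = 0.00353), with no overlap of the arrays. PARP14 was higher by 0.35 (adjusted p = 0.0401). This call was lost without any 1 pre-miR-371 DMSO array, without GFP vector DMSO array 1 or 2, and without array 2 of either erlotinib group, at adjusted p of 0.054 to 0.128. With only the DMSO groups fitted GBP2 was lost too (adjusted p = 0.0545). The probe sets of GBP1, GBP2 and SAMD9 did not all make the same call in DMSO when every probe set was tested. For GBP1 a second set gave 0.35 (adjusted p = 0.0505) and another 0.72 (adjusted p = 0.0167). The second GBP2 set gave 0.28 (adjusted p = 0.239) and the second SAMD9 set -0.36 (adjusted p = 0.155). Without GFP vector DMSO array 3 the count of higher genes went from 3 to 5, with UBE2L6 (0.44) and MX2 (0.82) added. In DMSO all pre-miR-371 arrays lay above the GFP vector arrays for 6 genes and below for 5, against 10.7% and 17.7% of all genes. For IRF9 the lines differed by -0.05 (95% interval -0.28 to 0.19) and for IFIT1 by 0.06 (-0.20 to 0.33).

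In erlotinib the lines differed for 10 genes. GBP1, DDX60 and HERC6 were higher in pre-miR-371 cells (6.5% of all genes were) and IFIT2, SAMD9, IRF9, IRF1, MX1, ISG20 and IFI35 were lower (9.46%). With a fold of over 1.5 as well, 1 was higher and 2 were lower (0.688% and 0.551% of all genes). GBP1 read 7.28, 7.22 and 7.43 in GFP vector cells and 8.46, 8.62 and 8.78 in pre-miR-371 cells, a difference of 1.31 (adjusted p = 8.07e-05) or 2.48-fold. Its 2 other probe sets above background gave 0.71 and 0.91. IFIT2 was lower by 0.80 (adjusted p = 0.000232) and SAMD9 by 0.75 (adjusted p = 0.000497). The second SAMD9 probe set gave -0.54 (adjusted p = 0.0249), and the second IFIT2 set gave -0.20 and did not pass (adjusted p = 0.618). The other differences that passed were 0.45 or less in size on the probe sets chosen. IFIT3 did not pass on its chosen set (-0.10). Its second set gave -0.60 (adjusted p = 0.000818), and its probe sets averaged gave -0.35 (adjusted p = 0.0405). In the other direction, the second sets of EIF2AK2 (0.27), OAS2 (0.44) and XAF1 (0.29) passed where the chosen ones did not. IRF9 was lower by 0.42 (adjusted p = 0.022), IRF1 by 0.38 (adjusted p = 0.0325) and IFI35 by 0.26 (adjusted p = 0.0197). In erlotinib all pre-miR-371 arrays lay above for 5 genes and below for 9, against 14.9% and 21.2% of all genes. GBP1, IFIT2 and SAMD9 passed with every array left out in turn, and the other 7 genes did not. The count of lower genes went from 7 to 3 without GFP vector erlotinib array 1 or 2, and to 4 without GFP vector erlotinib array 3 or pre-miR-371 erlotinib array 1 or 3. The count of higher genes went from 3 to 1 without GFP vector erlotinib array 1 or 2 or any 1 pre-miR-371 erlotinib array. HERC6 (0.07) and ISG20 (-0.16) did not pass with their probe sets averaged (adjusted p = 0.556 and 0.195).

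**Figure D4:**
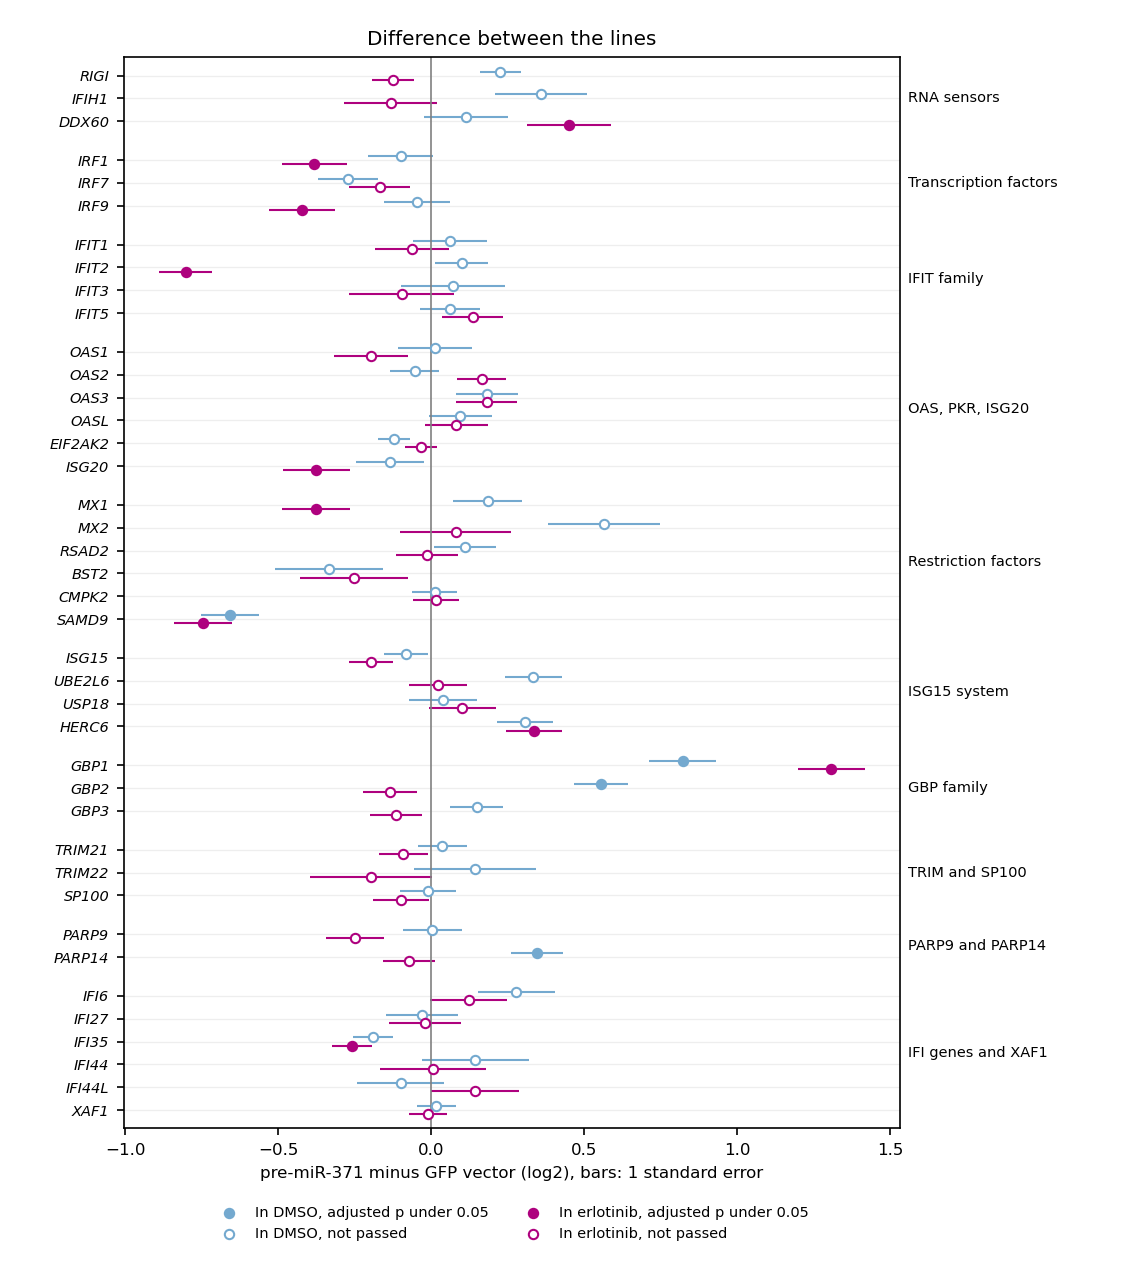
Difference between pre-miR-371 and GFP vector cells (log2) of the 40 genes in DMSO (light blue) and in erlotinib (magenta), with bars of 1 standard error. Filled points passed an adjusted p of 0.05 over all genes. GBP1 lies to the right under both treatments, at 0.82 and 1.31, SAMD9 to the left, at -0.66 and -0.75, and IFIT2 differs in erlotinib (-0.80) but not past the test in DMSO (0.10).

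The genes upstream of the response were read from a list of 46 signalling genes, of which 44 were measured. Of these, 17 were higher and 7 lower in GFP vector cells and 17 and 8 in pre-miR-371 cells, with medians of 0.08 and 0.05. These are 38.6% higher and 15.9% lower for GFP vector, against 26.5% and 23.4% of all genes, and 38.6% and 18.2% for pre-miR-371, against 24.8% and 22.2%. The interferon genes themselves stayed near background. All 9 ligands measured (IFNA1, IFNA2, IFNB1, IFNW1, IFNK, IFNE, IFNL1, IFNL2 and IFNG) had means under 4 in every group, IFNB1 (interferon beta) read 2.72 to 3.09 on the 12 arrays, and none rose past the test. IFNE fell by 0.29 in pre-miR-371 cells (adjusted p = 0.0217). An array of cell RNA does not measure secreted protein.

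Of 6 receptor genes GFP vector cells had 5 that rose and pre-miR-371 cells had 4. IFNAR1, the type I receptor chain that binds TYK2, read 6.55 to 6.88 and then 7.76 to 7.89 in GFP vector cells and rose by 1.16 and 1.08. IFNAR2, the other chain, rose by 0.28 in each line (adjusted p = 0.0308 and 0.034). IL10RB, a chain shared by the interferon lambda and interleukin receptors, rose by 1.32 and 1.40, and IFNGR1 of the interferon gamma receptor by 0.89 in each line. IFNGR2, its other chain, rose in GFP vector cells (0.24, adjusted p = 0.00322) and did not pass in pre-miR-371 cells (0.06), and IFNLR1 differed by -0.26 and -0.04 and did not pass. Behind the receptors JAK1 rose by 0.97 and 0.91, TYK2 by 0.73 and 0.76 and STAT3 by 1.13 and 1.22. JAK2, near background, differed by 0.18 in GFP vector cells, which did not pass, and its rise of 0.34 in pre-miR-371 cells did (adjusted p = 0.0407).

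The feedback inhibitors SOCS1 and SOCS3, which block JAK kinases, fell. SOCS1 read 6.06, 5.92 and 5.76 in GFP vector cells in DMSO and 4.68, 3.97 and 4.14 in erlotinib, and fell by 1.65 and 1.91. SOCS3 fell by 1.75 and 1.28. The phosphatase gene PTPN6 (SHP-1) rose by 1.65 and 1.17, PTPN11 (SHP-2) fell by 0.65 and 0.41, and PIAS1 rose by 0.67 and 0.74. PTPN2 did not pass.

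Of 14 genes of nucleic acid sensing 5 rose and 4 fell in GFP vector cells, and 5 rose and 3 fell in pre-miR-371 cells. These shares, 35.7% and 28.6% and then 35.7% and 21.4%, were near those of all genes (26.5% and 23.4%, and 24.8% and 22.2%), so the count is no result about the group. TLR3, the endosomal receptor of double-stranded RNA, read 3.51, 3.6 and 3.41 in GFP vector cells in DMSO and 7.30, 7.22 and 7.43 in erlotinib, and 3.67, 3.36 and 3.74 and then 6.68, 6.52 and 6.78 in pre-miR-371 cells. Its rise of 3.82 and 3.07 was larger in GFP vector cells, with a difference of -0.75 (standard error 0.15, adjusted p = 0.0262). CGAS, the cytosolic DNA sensor, fell by 2.08 and 1.70, and STING1, which acts after it, rose by 0.45 and 0.39 at values near 6. TRIM25, a ligase that activates RIG-I, fell by 0.98 and 0.85, TRAF3 by 0.96 and 0.89, and MAVS, the adaptor of the RNA helicases, rose by 0.25 and 0.27. IKBKE rose by 0.38 and 0.43 and RNF135 by 0.37 and 0.23. TBK1, the kinase that activates IRF3, fell by 0.21 in GFP vector cells (adjusted p = 0.0317) and did not pass in pre-miR-371 cells (-0.15). TICAM1, MYD88, IFI16, ZBP1 and DHX58 did not pass in either line, with differences of -0.31 to 0.25.

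Between the lines 0 of the 44 signalling genes were higher in DMSO and 1 was lower, JAK1 (-0.31, adjusted p = 0.0252). In erlotinib 1 was higher, the lambda receptor chain IFNLR1 (0.45, adjusted p = 0.0182), and 5 were lower. These 2.27% and 11.4% stood beside 6.5% and 9.46% of all genes, and the DMSO counts beside 1.62% and 3.64%. The lower genes were TLR3 (-0.66), PTPN6 (-0.54), JAK1 (-0.37), RNF135 (-0.26), a ligase that acts on RIG-I, and IFNGR2 (-0.23).

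A second list held 45 other interferon-stimulated genes, of which 42 were measured. In each line 26 were higher (61.9%) and 6 lower (14.3%), where all genes gave 26.5% and 23.4% for GFP vector and 24.8% and 22.2% for pre-miR-371, with medians of 0.47 and 0.47, and the medians of the 40 genes were 1.14 and 0.91, set side by side with no test. The largest changes were rises of IFITM3 (1.79 and 1.6), SAMD9L (1.77 and 1.16), IFITM1 (1.74 and 1.6) and DTX3L in GFP vector cells, and of CXCL11 in pre-miR-371 cells. IFITM1 and IFITM3 block virus entry. CXCL11, a chemokine for T cells, read 2.35 to 2.75 in DMSO and rose by 0.98 in GFP vector cells and by 1.94 in pre-miR-371 cells, and this difference of 0.97 passed (adjusted p = 0.00615), with no array above 4.69. SP110, a nuclear body gene, rose by 1.25 and 0.80 and differed by -0.45 (adjusted p = 0.0391). TRIM14 and PNPT1 fell, by 1.49 and 1.47 in GFP vector cells and by 1.29 and 1.34 in pre-miR-371 cells. In erlotinib 2 of the 42 were higher and 2 lower for pre-miR-371 (4.76% each, against 6.5% and 9.46% of all genes). PARP12 (-0.34) was among the lower and LAMP3 (0.27) among the higher. The differences of the 42 genes ran from -0.41 to 1.16.

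Of 17 listed genes of MHC class I and its peptide supply, which interferons also raise, 15 were measured. In each line 14 were higher and 1, the peptide transporter gene TAP2, was lower (-0.83 and -0.71), with medians of 1.46 and 1.29. These 93.3% and 6.67% stood beside 26.5% and 23.4% of all genes for GFP vector and 24.8% and 22.2% for pre-miR-371. PSMB9, an immunoproteasome subunit, rose by 2.93 and 2.63, ERAP2 by 1.94 and 1.57, TAPBP by 1.74 and 1.68, and NLRC5, the transactivator of these genes, by 1.64 and 1.56. In DMSO ERAP2 was higher in pre-miR-371 cells by 0.51 (adjusted p = 0.0398). In erlotinib 5 of the 15 (33.3%, against 9.46% of all genes) were lower there, led by PSMB8 and PSMB10 (-0.34 each) and HLA-E (-0.25), and the response itself differed for none past the test.

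**Figure D5:**
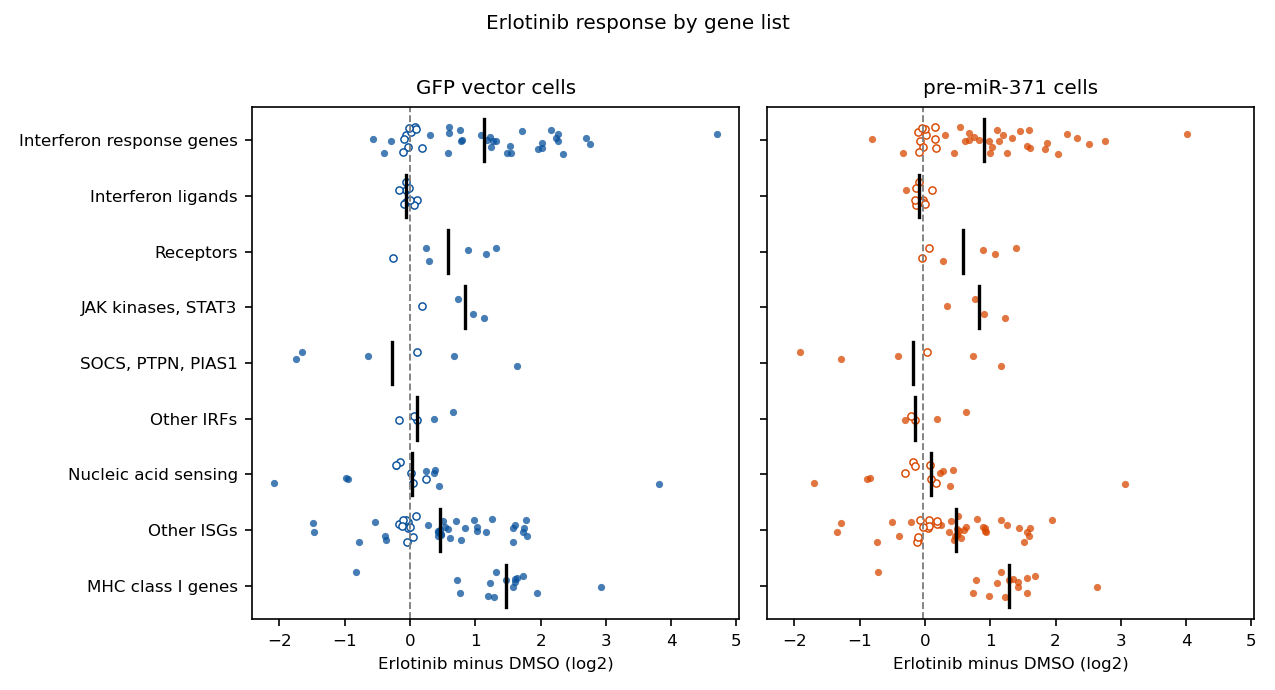
Difference between erlotinib and DMSO (log2) of every measured gene by list, in GFP vector cells (left) and pre-miR-371 cells (right). Filled points passed an adjusted p of 0.05 over all genes, black bars are the medians of the lists, the dashed line is the median of all 19775 genes, and vertical scatter within a list has no meaning. ISG stands for interferon-stimulated gene. The medians of the interferon response genes (1.14 and 0.91) and the MHC class I genes (1.46 and 1.29) lie to the right, and the 9 ligands lie near 0.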

How the data were processed

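Biotin-labelled RNA of 12 samples was hybridised to Affymetrix Hgu133plus2 arrays. The deposited values are log2 intensities that the authors made per array with RMA of the affy package, as the submitters' processing notes name them without a version, and the study's methods state quantile normalization. No scanner files were used. Probe sets were named through GEO's platform annotation with symbols updated by gene identifier. Of 54675 probe sets 41097 had 1 symbol, 1801 several and 11777 none listed, and 62 were controls. For each of 19775 genes the probe set with the highest mean was kept. limma 3.58.1 in R 4.3.3 (lmFit, eBayes) fitted the 4 group means on all 12 arrays, tested on simulated data, with Benjamini-Hochberg adjustment over all genes and a limit of 0.05, also with a fold over 1.5. The number of arrays limits the precision. Alternatives were other summaries of probe sets, filters, normalizations, variance models, fold limits and the removal of each array. The genes named were all members, the signalling genes, and up to 4 genes per comparison of the other lists with the largest change past the test. NMI, GBP4 and GBP5 were named beside their relatives after their values were seen. The members and lists were chosen with earlier results of these data known. Promoter and miRNA sequences are RefSeq's (GRCh38.p14), and the Wilson interval of the motif share covers counting error only.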

Additional observations from a re-analysis of the deposited data

Results flagged for a closer look

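The erlotinib responses of the 2 lines differed past the test for 5 genes of the interferon lists, each by a test of the difference itself (pre-miR-371 response minus GFP vector response, log2, limma, 3 arrays per group). Lower were 2 of the 40 members (5%), 1 of 44 signalling genes (2.27%) and 1 of 42 other interferon-stimulated genes (2.38%), against 0.561% of all genes. Higher was 1 of the 42 (2.38%), against 1.44% of all genes, and 0 of the 15 MHC class I genes passed. For IFIT2 the difference was -0.90 (standard error 0.12, adjusted p = 0.0072), with all 3 pre-miR-371 arrays below all 3 GFP vector arrays in erlotinib. For GBP2 it was -0.69 (standard error 0.12, adjusted p = 0.0165), where the lines differed in DMSO and their arrays overlapped in erlotinib. The averaged probe sets of IFIT2 did not pass (-0.53, adjusted p = 0.109), nor did the second GBP2 probe set (-0.54, adjusted p = 0.21). For TLR3 the difference was -0.75 (standard error 0.15, adjusted p = 0.0262) and for SP110 -0.45 (standard error 0.10, adjusted p = 0.0391). For CXCL11 it was 0.97 (standard error 0.12, adjusted p = 0.00615), the only one of the 5 with the larger rise in pre-miR-371 cells, with no array above 4.69. Their causes were not tested.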

How the results depend on the processing

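No result reversed under any of the alternatives run. Unless a share of all genes is printed beside them, the counts below show only how far the calls hold and are no result about the lists. With 1 array left out, the members higher in erlotinib numbered 27 to 28 in GFP vector cells (28 with all arrays) and 27 to 28 in pre-miR-371 cells (28), and the lower ones 3 to 3 and 1 to 2. The signalling genes higher numbered 16 to 18 and 14 to 18 and lower 6 to 8 and 6 to 9, and the other interferon-stimulated genes higher 26 to 26 and 25 to 27 and lower 5 to 6 and 5 to 6. Between the lines the members higher in DMSO numbered 2 to 5 and lower 1 to 1, in erlotinib higher 1 to 3 and lower 3 to 7, and for the difference of responses 0 to 0 and 2 to 2.

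Genes with a mean of at least 6 over all arrays left fewer members to test. On them the members higher in erlotinib were 12 in each line and the lower ones 0. Other interferon-stimulated genes higher in GFP vector cells were 17, and members higher in pre-miR-371 cells were 5 in DMSO and 1 in erlotinib. The mean includes the erlotinib arrays, so a gene could pass this filter by rising. GBP2 and IRF9 passed it although under 6 in both DMSO groups, and USP18, which fell, did not (mean 5.94). These counts are partly set by the filter, and the share of all genes under it is not given here. With a fold over 1.5 the lower members were 0 in GFP vector and 1 in pre-miR-371 cells, the signalling genes higher 10 and 10 with 5 lower in pre-miR-371 cells, and the other interferon-stimulated genes higher 16 and 15 and lower 3 and 3. With a fold over 2 the members higher in pre-miR-371 cells were 18 and the lower ones 0 in each line, the signalling genes higher 5 and 5 and lower 3 and 3, and the others higher 11 and 8 and lower 2 and 2. Between the lines a fold over 1.5 left 1 higher in DMSO, and 1 higher and 2 lower in erlotinib. A fold over 2 left 0 higher and 0 lower in DMSO, 1 higher and 0 lower in erlotinib, and 0 lower for the difference of responses. The share of all genes at a fold over 2 is not given here.

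For the lines in DMSO, fitting only the groups compared gave 1 higher, repeated quantile normalization 5, a trended and robust variance 5, array weights 8 higher and 2 lower, and an unadjusted p 9 higher and 4 lower. In erlotinib only the groups compared gave 1 higher. For the difference of responses a trended and robust variance gave 1 higher (GBP1), an unadjusted p 1 higher and 8 lower, array weights 5 lower, and averaging each gene's probe sets 1 lower, where IFIT2 did not pass (-0.53, adjusted p = 0.109). At the unadjusted limit 4509 of the 19775 genes passed in either direction for the lines in DMSO, and 2974 for the difference of responses. Repeated quantile normalization left 3 members, not 5, with all pre-miR-371 arrays below in DMSO. The causes were not tested.

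Arrays with the same replicate number correlated by -0.0568 to 0.1979 in their deviations from the group means. Arrays of different groups with different numbers correlated by -0.2026 to 0.1078. The highest values were between arrays of the same number, so whether the numbers pair the samples is not settled here. With the replicate number as a block, members numbered 28 higher and 3 lower, 28 and 2, 3 and 1, 2 and 6, and 0 and 2 over the 5 comparisons, and DDX60 (adjusted p = 0.0681) and MX1 (adjusted p = 0.0656) did not pass between the lines in erlotinib. Of 22 members with several probe sets, calls differed between probe sets for 10 and 9 in the erlotinib responses and were opposite for 0.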

Other observations

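GFP vector DMSO array 1 was the highest of its 3 arrays for 22 of the 40 genes (55%) and for 45% of all genes. The median standard deviation of the 40 genes within a group was 0.16 there and 0.10 to 0.11 in the other groups, and the widest were MX2 in GFP vector cells in DMSO (0.43), where array 3 read 4.32 beside 3.58 and 3.56, and BST2 in pre-miR-371 cells in erlotinib (0.43), where array 2 read 5.39 beside 4.57 and 4.76.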
